A study of Mus musculus with 4 samples.

Results

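The genes of the Fraser complex, the hemicentins and nephronectin, which encode proteins of the basement membrane around the hair follicle, were followed in RNA from bulge cells of mouse skin. The bulge is the stem cell compartment of the follicle. The group held 8 genes by name (Fras1, Frem1, Frem2, Frem3, Grip1, Hmcn1, Hmcn2 and Npnt) of 55536 in the count table, and all 8 were found. The family was selected on results of the knockout against control contrast, in which 2 of its genes, Frem2 and Hmcn1, had been noted as lower in knockouts; the other members were added by name. Differences between knockouts and controls at the 8 genes are therefore descriptions, given without a test. Of the 8 genes, 5 passed the filter on low counts (Fras1, Frem2, Grip1, Hmcn1 and Npnt), and Frem1, Frem3 and Hmcn2 did not.

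Libraries came from 2 knockout and 2 control samples of C57BL/6 background. Knockouts carried Alk1 flox/flox alleles and Cdh5CreERT2, a tamoxifen-inducible Cre driven by the endothelial Cdh5 promoter. Alk1 is the BMP family receptor encoded by Acvrl1. Controls were littermates without Cre, and their Alk1 alleles were not stated. Tamoxifen was injected intraperitoneally into both groups on postnatal day 17, at 100 µg for each g of weight, and skin was collected on postnatal day 20, 3 days later. Cre is thus directed at endothelium and not at the bulge cells sequenced. Whether a library is 1 animal or a pool, and how bulge cells were isolated, was not stated in these sources. Any p-value therefore measures the spread between these samples, which may be technical.

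Fras1, Frem1 and Frem2 are large extracellular proteins that assemble into one complex beneath epithelial basement membranes and fasten epithelium to the underlying mesenchyme. In mice and humans, loss of the complex gives the blistering and cryptophthalmos of the Fraser syndrome spectrum. Grip1 is a PDZ domain adaptor that carries Fras1 and Frem2 to the basal cell surface. Hemicentins are giant extracellular immunoglobulin-domain proteins related to the fibulins. Nephronectin, the product of Npnt, is laid down by bulge cells and binds integrin α8β1 on the arrector pili muscle, which attaches at the bulge.

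The series asked how endothelial Alk1 and BMP4 signalling bears on the timing of stem cell activation in the follicle. Levels are in CPM (counts scaled to the effective library size). Acvrl1, the deleted gene, measured 21.6 and 24.3 CPM in the controls against 17.9 and 23.1 CPM in the knockouts. This does not check the labels, since deletion was directed at endothelium and the counts are for the entire gene. As for the sample type, the 9 genes listed for the bulge had counts in all 4 libraries. They were Krt15, Cd34, Lgr5, Lhx2, Sox9, Nfatc1, Krt5, Krt14 and Itga6, and not all of them are particular to the bulge. Krt15 measured 29088 to 36017 CPM, Cd34 1328 to 1949 CPM and Lgr5 322 to 420 CPM. Summed over 6 arrector pili and smooth muscle markers the level was 1.84 to 3.05 CPM, and over 7 blood endothelial markers 2.76 to 18.1 CPM. Interfollicular differentiation markers (Krt10, Krt1 and 4 others) summed to 10780 and 3135 CPM in controls 1 and 2 and to 6705 and 2722 CPM for knockouts 1 and 2, so replicate 1 was the higher in both groups. Sebaceous gland markers were ordered the same way, at 607, 247, 349 and 204 CPM. Depth ran from 16326906 to 29130974 counts per library.

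Frem2, Hmcn1 and Npnt were, among the 5 genes above the count filter, the 3 with the lowest knockout levels relative to controls. Their upstream sequences are shown because the 3 genes had like profiles over the libraries, a likeness that includes the difference between groups. Of the 8 genes, 7 had an entry in the RefSeq promoter table (build GRCm38.p6); Fras1 had none. Each line gives the 250 bases before the start site, 5′ to 3′ on the gene's strand. Frem2 is at chr3:53657356-53657605 on the minus strand, Hmcn1 at chr1:150993436-150993685 on the minus strand and Npnt at chr3:132950292-132950541 on the minus strand. Capitals mark matches to any of 6 motifs, searched on both strands: CCAAT (the CCAAT box), GGGCGG (the GC box), TGANTCA (AP-1), CTTTGA (the TCF/LEF core), CAGAC (a SMAD-binding element) and GGCGCC (a GC-rich SMAD element). No match to a motif overlapped a match to a different motif in these windows.
Frem2: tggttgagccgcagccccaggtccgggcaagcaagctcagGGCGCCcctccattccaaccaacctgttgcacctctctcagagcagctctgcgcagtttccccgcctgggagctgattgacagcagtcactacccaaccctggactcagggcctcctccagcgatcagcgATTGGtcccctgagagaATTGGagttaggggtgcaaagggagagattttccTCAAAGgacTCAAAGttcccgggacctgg
Hmcn1: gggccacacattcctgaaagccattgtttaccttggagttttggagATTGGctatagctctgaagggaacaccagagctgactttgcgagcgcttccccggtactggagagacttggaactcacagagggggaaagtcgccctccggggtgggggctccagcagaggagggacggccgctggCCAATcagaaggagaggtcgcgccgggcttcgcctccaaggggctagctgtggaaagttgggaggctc
Npnt: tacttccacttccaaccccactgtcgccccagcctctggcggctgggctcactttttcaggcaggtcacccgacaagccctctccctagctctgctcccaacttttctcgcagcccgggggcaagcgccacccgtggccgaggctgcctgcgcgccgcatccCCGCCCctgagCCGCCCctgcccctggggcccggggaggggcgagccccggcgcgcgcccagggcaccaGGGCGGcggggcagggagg
The Frem2 window held 2 CCAAT matches on the reverse strand, which began 80 and 63 bases before the start site. It also held 2 CTTTGA matches on the reverse strand, at 29 and 20 bases, and 1 GGCGCC at 210 bases. The Hmcn1 window held 2 CCAAT matches, at 204 bases on the reverse strand and 68 bases on the forward strand. Npnt had no CCAAT and 3 GC boxes, at 88 and 77 bases on the reverse strand and 19 bases on the forward strand. No single motif of the 6 was therefore shared by all 3 windows. Over 32851 promoter windows of 250 bases, CCAAT occurred in 33.8%, GGGCGG in 32.7%, CTTTGA in 13.8% and GGCGCC in 9.6%. TGANTCA occurred in 6.7% and CAGAC in 42.2% of windows, and neither was found in the 3 windows shown. GC content was 59.6% for Frem2, 60.0% for Hmcn1 and 74.0% for Npnt, against a median of 52.4% over all windows. A match describes letters in the window and is not evidence of binding.

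Among the 8 genes, nephronectin had the highest transcript level per length. Levels between genes are given as CPM per kilobase of exon. Over all 4 libraries the mean was 114 for Npnt, 18.9 for Hmcn1, 10.8 for Frem2, 5.44 for Grip1 and 0.698 for Fras1. On this scale Npnt stood above 97.6% of tested genes, Hmcn1 above 82.5%, Frem2 above 70.4%, Grip1 above 52.9% and Fras1 above 16.7%. The order Npnt, Hmcn1, Frem2, Grip1, Fras1 held in each of the 4 libraries. Within each group no neighbours in that order overlapped. Across groups, Hmcn1 in knockouts (12.6 and 11.6) overlapped Frem2 in controls (12.0 and 18.2), and Frem2 in knockouts (6.86 and 6.36) overlapped Grip1 in controls (5.67 and 6.65).

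Of the core extracellular partners of the Fraser complex, Frem2 was by far the most abundant in these cells. Frem2 (ENSMUSG00000037016, chr3:53513938-53657355, minus strand, GRCm38, 26 exons after merging transcripts, 13255 exon bases) had 2657 and 7110 counts in controls and 1979 and 1760 in knockouts. Scaled to library size these were 159 and 241 CPM in controls 1 and 2 against 91.0 and 84.3 CPM in knockouts 1 and 2. Both knockout libraries lay below both controls, and the lowest control was 1.75 times the highest knockout. Controls averaged 200 ± 58 CPM and knockouts 87.6 ± 4.7 CPM (SD, n = 2 each), so most of the spread lay between the controls. The fitted log2 fold change, knockout over control, was -1.19 ± 0.21 (SE), or 0.438 times the control level. Fewer cells expressing a gene and less RNA per cell cannot be told apart in bulk libraries.

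Fras1, the membrane-anchored partner of Frem2, was present at a low level. Fras1 (ENSMUSG00000034687, chr5:96373955-96784728, plus strand, 17709 exon bases) measured 12.7 and 14.3 CPM in the controls against 10.1 and 12.5 CPM in the knockouts, from 212 to 421 counts. The lowest control was 1.02 times the highest knockout, so the groups barely separated. Its log2 fold change was -0.26 ± 0.21 (SE). The ratio of Frem2 to Fras1, both per kilobase, was 16.7 and 22.6 in controls and 12.1 and 9.04 in knockouts. Both knockout ratios lay below both control ratios, but Frem2 was picked as lower in knockouts, so nothing is read from this order. Of the Fras1 exon bases, 159 (0.90%) are shared with the antisense gene Gm42604, and whether counting used strand is not known.

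The other Frem genes were at or near the limit of detection. Frem1, which encodes the secreted partner of the complex and is known as a product mainly of mesenchyme in skin, had 3 and 0 counts in controls and 1 and 4 in knockouts. Frem3, a related gene (chr8:80611080-80695356), had 6 and 1 counts in controls and 1 and 0 in knockouts. A count of 0 allows up to 3 counts, which is 0.102 CPM in control 2 and 0.144 CPM in knockout 2 (counting error only). Neither gene supports a comparison of groups at this depth. Dermal fibroblast markers were themselves sparse apart from Col1a1 and Col1a2: Pdgfra measured at most 2.13 CPM, and Twist2 was listed at 0 in every library.

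Grip1, the adaptor that delivers Fras1 and Frem2 to the cell surface, was at a middle level. It (ENSMUSG00000034813, chr10:119453830-120087261, plus strand, 8064 exon bases) measured 45.7 and 53.6 CPM in the controls against 40.5 and 35.8 CPM in the knockouts. Both knockouts lay below both controls, by a narrow margin, with the lowest control 1.13 times the highest knockout. The log2 fold change was -0.38 ± 0.15 (SE), or 0.767 times the control level. Frem2 per kilobase stood at 2.12 and 2.73 times Grip1 in controls and at 1.37 and 1.43 times in knockouts. As Frem2 was picked as lower in knockouts, nothing is read from this order either. The paralogue Grip2 had mean levels below the count filter, at 0.299 and 0.271 CPM in the controls against 0.0919 and 0.0479 CPM in the knockouts.

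Hmcn1 was the hemicentin of these cells, and Hmcn2 was close to absent. Hmcn1 (ENSMUSG00000066842, chr1:150562524-150993435, minus strand, 108 merged exons, 21191 exon bases) measured 475 and 618 CPM in the controls against 267 and 246 CPM in the knockouts. Group means were 546 ± 101 and 257 ± 15 CPM (SD, n = 2 each). The groups did not overlap, with the lowest control at 1.78 times the highest knockout. The log2 fold change was -1.09 ± 0.16 (SE), or 0.470 times the control level. Hmcn1 shares 399 exon bases (1.88%) with the antisense gene Gm20631.

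Hmcn2 (chr2:31314415-31460738, plus strand) had 0 counts in both controls and 4 and 7 counts in knockouts, or 0.184 and 0.335 CPM. A count of 0 allows up to 0.180 CPM in control 1 and 0.102 CPM in control 2. Of the 8 genes, Hmcn2 alone had both knockouts above both controls, at counts too few for a fold change. It failed the count filter and was not among the tested genes.

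Npnt, the nephronectin gene, was lower in both knockouts to about the degree of Hmcn1. Npnt (ENSMUSG00000040998, chr3:132881745-132950291, minus strand, 15 merged exons, 5026 exon bases) measured 598 and 959 CPM in the controls against 421 and 312 CPM in the knockouts. Group means were 778 ± 256 and 367 ± 77 CPM (SD, n = 2 each). The groups did not overlap, but the spread within each group was wide, and the lowest control was 1.42 times the highest knockout. The log2 fold change was -1.09 ± 0.26 (SE), or 0.471 times the control level. Control 2 weighed most: the value was -0.68 without it and -1.39 without control 1.

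**Figure D1:**
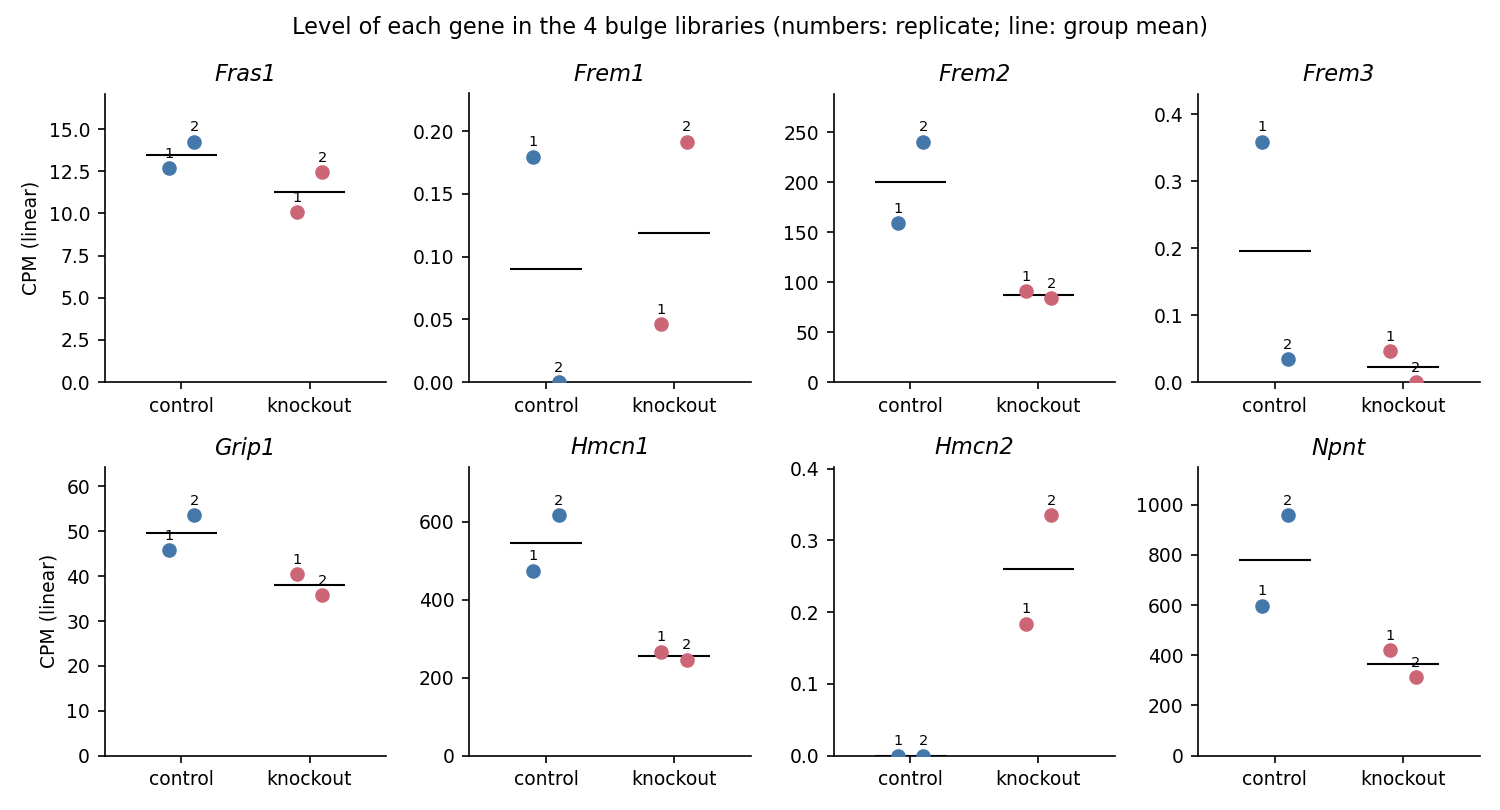
Level of each of the 8 genes in CPM (linear axes from 0, each panel with its own scale) in the 2 control and 2 knockout libraries; numbers mark the replicate and lines the group mean. Frem2, Hmcn1 and Npnt show knockout points well below both control points, Fras1 and Grip1 narrow gaps, and Frem1, Frem3 and Hmcn2 lie under 0.4 CPM.

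All 5 genes above the filter had both knockout libraries below both controls, where 23.6% of all 14259 tested genes did and 21.3% had both above. Because knockout against control was used to choose the genes, and a gene that passes the filter mainly through its higher group is favoured, nothing is read from that count. The median log2 fold change of the 5 was -1.09, against -0.02 over all tested genes. This median was -0.68 without control 2, and -0.74 over all 8 genes with no count filter. It describes a family of which Frem2 and Hmcn1 were picked as lower. Frem2, Hmcn1 and Npnt lay between -1.19 and -1.09, and Grip1 and Fras1 at -0.38 and -0.26. Npnt was not part of the noted pair, but it too was chosen with earlier results of these data known. Its value equalled that of Hmcn1 to 2 decimals. With 1 library left out, however, it ran from -1.39 to -0.68, and that of Hmcn1 from -1.27 to -0.86.

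The sign of each of the 5 genes was the same in all 10 alternative analyses. Log2 fold changes ran from -1.46 to -0.84 for Frem2, from -1.27 to -0.83 for Hmcn1, from -1.39 to -0.68 for Npnt, from -0.49 to -0.24 for Grip1 and from -0.42 to -0.02 for Fras1. All 10 draw on the same 4 libraries, and each of the 5 genes had both knockouts below both controls. The shared sign was thus nearly set beforehand, and nothing is read from it. For Frem2 and Npnt the value nearest 0 came without control 2, which was the library with the highest level of each of the 5 genes. For Fras1, Grip1 and Hmcn1 it came when the trend with exon length and GC content was taken out.

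**Figure D2:**
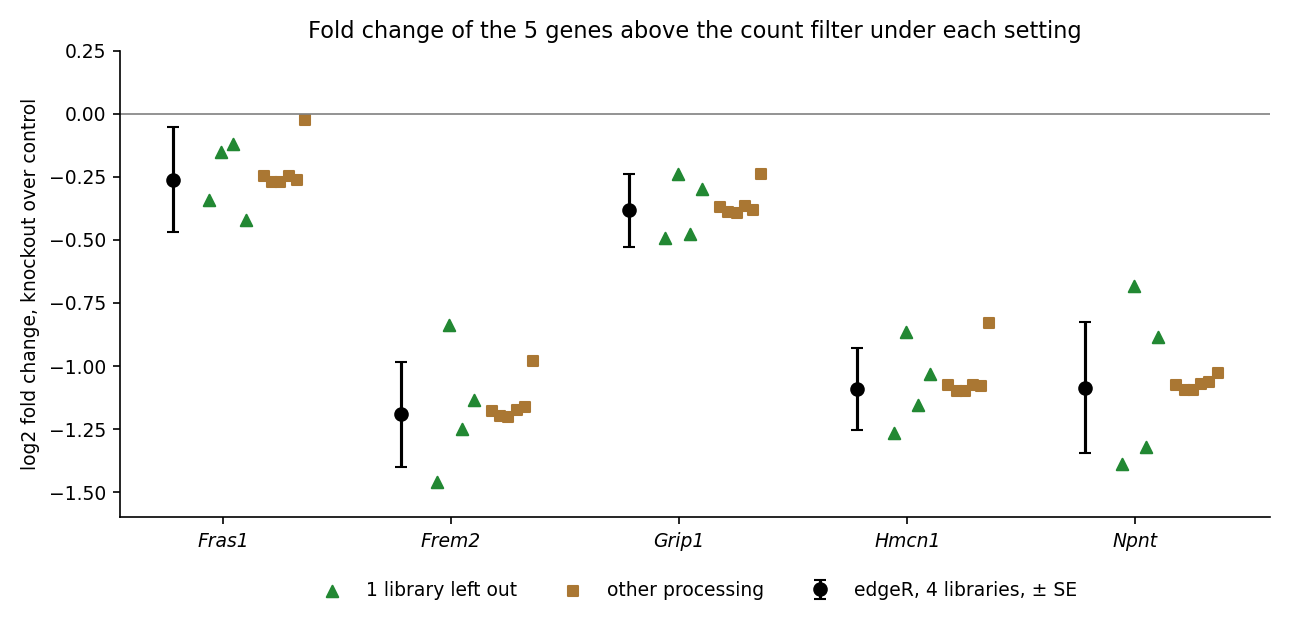
Log2 fold change, knockout over control, of the 5 genes above the count filter: black circles with the SE from edgeR on 4 libraries, green triangles with 1 library left out, brown squares with other processing. All points lie below 0, and Fras1 with the length and GC trend removed (-0.02) lies nearest to it.

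The profiles of Frem2, Hmcn1 and Npnt over the libraries were alike. The measure used includes the difference between groups, on which Frem2 and Hmcn1 were picked, so their likeness is a description only. After centring log2 CPM on each gene's mean, Frem2 and Hmcn1 differed by a root mean square of 0.088 over the 4 libraries, Frem2 and Npnt by 0.13, and Hmcn1 and Npnt by 0.15. Frem2 and Fras1, partners in one complex, differed by 0.50, and Frem2 and Grip1 by 0.41. Fras1 and Grip1 were nearer to each other, at 0.18. The ratio of Hmcn1 to Frem2, both per kilobase, was 1.87 and 1.60 in controls and 1.84 and 1.83 in knockouts. The ratio of Npnt to Frem2 was 9.91 and 10.5 in controls and 12.2 and 9.77 in knockouts, so for both ratios the groups overlapped.

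Frem2, Hmcn1 and Npnt were each higher in control 2 than in control 1 and higher in knockout 1 than in knockout 2. The interfollicular and sebaceous marker sums were highest in control 1, and higher in knockout 1 than in knockout 2. They therefore ran against the 3 genes within controls and with them within knockouts. Their part in the difference between groups was not tested. The 8 dermal fibroblast markers, 6 of them counted in every library, summed to 183 and 233 CPM in the controls against 136 and 141 CPM in the knockouts. That sum was lower in both knockouts, as were the 3 genes, and was made up mostly of Col1a1 (117, 148, 89.5 and 75.3 CPM) and Col1a2 (62.3, 80.9, 43.8 and 56.5 CPM). Of the list, 3 sparse markers were instead highest in knockout 2: Dcn measured 0.778 and 1.22 CPM in the controls against 0.919 and 3.26 CPM in the knockouts, Col3a1 1.02 and 0.948 against 0.552 and 2.97 CPM, and Pdgfrb 0.180 and 0.169 against 0.0919 and 0.766 CPM. The part of these markers in the result was not tested. Lum was at 0 in both controls and at most 0.0479 CPM in the knockouts.

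Among other tested genes with a mean of at least 2 CPM, the profile nearest to Frem2 was that of Hmcn1 itself (0.088), followed by Mme, which encodes the cell surface peptidase neprilysin (0.090), and the retrotransposon-derived gene Rtl6 (0.12). Mme measured 43.8 and 74.5 CPM in the controls against 26.5 and 27.3 CPM in the knockouts. Nearest to Hmcn1 were Ltbp1, a latent TGF-β binding protein of the matrix (0.033), Rtl6 (0.055) and the imprinted zinc finger gene Peg3 (0.075). Ltbp1 measured 192 and 239 CPM in the controls against 109 and 101 CPM in the knockouts, nearly the same steps as Hmcn1. Likeness was the root mean square difference of centred log2 CPM over 4 libraries, which also counts the difference between groups, so a gene near Frem2 or Hmcn1 is one with a like group difference.

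**Figure D3:**
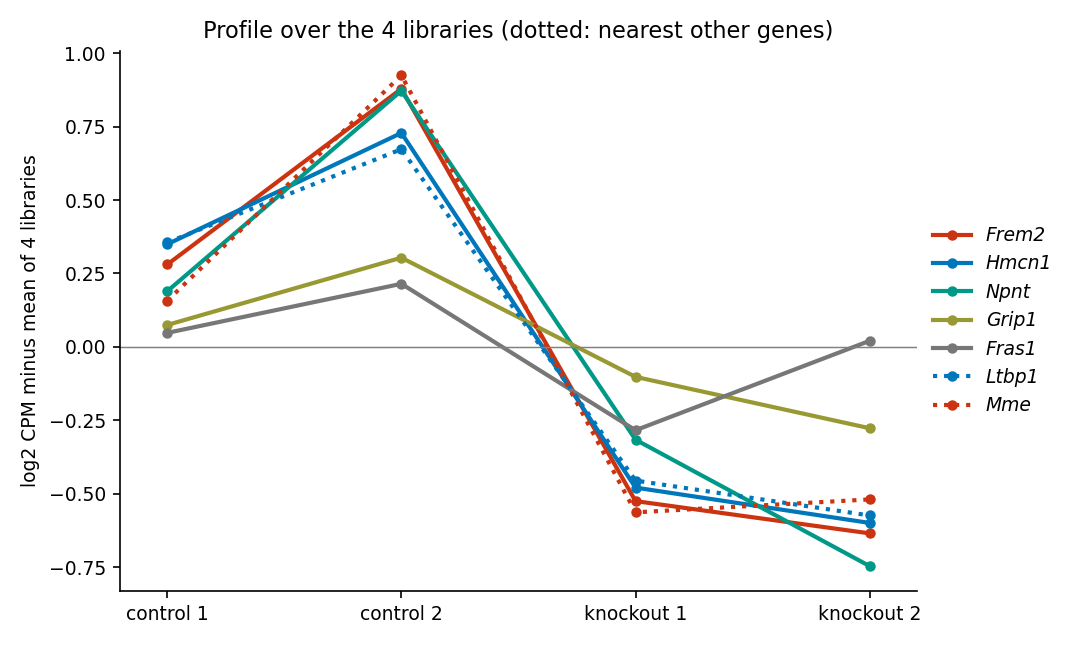
Log2 CPM minus each gene's mean over the 4 libraries (vertical axis) in controls 1 and 2 and knockouts 1 and 2; solid lines are the 5 genes above the filter, dotted lines Ltbp1 and Mme, the nearest other genes to Hmcn1 and Frem2. Frem2, Hmcn1 and Npnt follow one shape, and Grip1 and Fras1 stay closer to 0 in every library.

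Most of these genes are very long, and log2 fold changes in these libraries ran with exon length. Fras1, Frem2 and Hmcn1 were in the longest length decile of tested genes (9594 exon bases or more), Grip1 in decile 9 and Npnt in decile 7. In the longest decile the median log2 fold change was -0.19, with quartiles of -0.40 and -0.01, and 49.2% of its genes had both knockouts below both controls. Of the 1426 genes in that decile, 18 had a lower value than Frem2 and 20 a lower value than Hmcn1. Both genes were picked as lower in knockouts, so nothing is read from these ranks. For Fras1, 571 had a lower value, so it lay near the middle of its decile. Of the 1426 genes in its own decile, whose median was -0.05, 25 had a lower value than Npnt. For Grip1 the number was 289, in a decile whose median was -0.13. Npnt was also chosen with earlier results of these data known, so nothing is read from its rank either. Once the length and GC trend was taken out, the values were -0.98 for Frem2, -0.83 for Hmcn1, -1.03 for Npnt, -0.24 for Grip1 and -0.02 for Fras1.

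**Figure D4:**
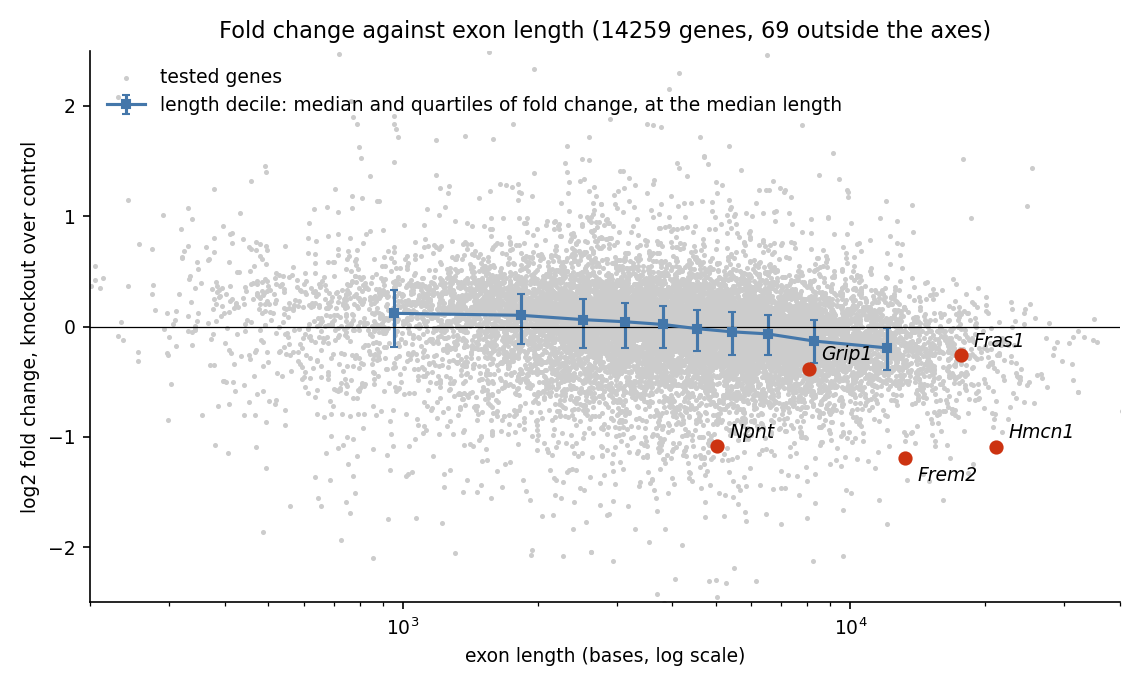
Log2 fold change, knockout over control, against exon length on a log scale for 14259 tested genes (grey; 69 outside the axes), with median and quartiles of each length decile in blue and the 5 genes in red. Frem2, Hmcn1 and Npnt lie well below the medians of genes of like length, and Fras1 lies near the median of its decile. Frem2 and Hmcn1 were picked as lower in knockouts, and Npnt was chosen with earlier results of these data known. Their places are descriptions only.

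The wider basement membrane was read from 5 lists of partner genes, 70 in all, of which 62 were tested. None of the 62 passed edgeR's quasi-likelihood test at an adjusted p of 0.05, where 1 of 14259 tested genes passed as higher (0.00701%) and 0 passed as lower (0%). The smallest adjusted p among partners was 0.43, and DESeq2 called none of them either. At an unadjusted p under 0.05, 18 partners were lower and 2 higher, that is 29.0% and 3.23%, against 5.94% and 4.8% of all tested genes. That comparison was not matched for exon length, so no excess is read from it. Both knockouts lay below both controls for 27 of the 62 (43.5%) and above both for 7 (11.3%), against 23.6% and 21.3% of all tested genes. The partners are long, with a median of 6983 exon bases, which falls in length decile 8, where the shares were 28.8% and 16.6%. Partners also lie in longer deciles, where the shares were 39.0% and 12.7% (decile 9) and 49.2% and 8.98% (decile 10). The median log2 fold change of the 62 was -0.15, against -0.02 over all tested genes. Once the length and GC trend was taken out it was -0.07, with the median of all genes at 0.04. Of the 62 partners, 43 were below 0 (69.4%, against 52.5% of all tested genes), and 33 were once that trend was taken out.

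Collagens of the basement membrane had the lowest median of the 5 lists, at -0.41. Of the 10 tested, 9 were below 0 (90%, against 52.5% of all tested genes and 60.8% in length decile 8). Both knockouts lay below both controls for 8 of the 10, or 80.0%, against 23.6% of all tested genes. Col7a1, the collagen of the anchoring fibrils that lie in the same zone as the Fraser complex, gave -0.55 ± 0.15 (SE; edgeR adjusted p = 0.43). Col17a1, the transmembrane collagen of hemidesmosomes, gave -0.07 ± 0.13 (adjusted p = 0.86). These 10 genes are long, with a median of 7242.5 exon bases, and in length deciles 8, 9 and 10 the share of genes with both knockouts below both controls was 28.8%, 39.0% and 49.2%. The lowest value in the list was -0.60, above those of Frem2, Hmcn1 and Npnt.

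Laminins, nidogens and heparan sulfate proteoglycans had a median of -0.18 over 12 tested genes, 9 of them below 0 (75%, against 52.5% of all tested genes). Their median of 9483 exon bases falls in length decile 9, where 68.4% of genes were below 0 and the median was -0.13. Agrn, the proteoglycan agrin, gave -0.39 ± 0.12 (SE; edgeR adjusted p = 0.43), and Lamb3, the β chain of the main epidermal laminin, gave 0.24 ± 0.14 (adjusted p = 0.55). Lama5, named after its values were seen, gave -0.67 ± 0.19 (adjusted p = 0.43). It encodes the α chain of a laminin that is rich in follicle basement membrane. Lama5 is in length decile 10, where 49.2% of genes had both knockouts below both controls.

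Of the receptor of nephronectin, integrin α8β1, the transcript of the α8 chain was scarce and that of the β1 chain abundant. Integrins and dystroglycan had a median of -0.02 over 14 tested genes, with 7 below 0 (50%, against 52.5% of all tested genes) and 7 above. Itga8, which encodes the α8 chain, measured only 0.718 and 0.610 CPM in the controls against 1.15 and 1.10 CPM in the knockouts. Itgb1, its β1 partner, was abundant, at 525 and 631 CPM in the controls against 611 and 475 CPM in the knockouts (log2 fold change -0.09 ± 0.17 SE, edgeR adjusted p = 0.86). Of the 6 arrector pili and smooth muscle markers, Myh11 measured at most 0.180 CPM. Tagln, the highest of them by mean, measured 1.14 and 1.12 CPM in the controls against 0.460 and 1.63 CPM in the knockouts. Whether the Itga8 level is tied to these markers was not tested. Itgav gave -0.41 ± 0.14 (adjusted p = 0.43) and Itgb4, the hemidesmosome integrin, measured 1248 and 1299 CPM in the controls against 1202 and 1346 CPM in the knockouts. Itga1, named after its values were seen, had the highest value of the list, at 0.99 ± 0.27 (adjusted p = 0.43).

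Other extracellular partners had a median of -0.21 over 19 tested genes, 13 of them below 0 (68.4%, against 52.5% of all tested genes). Their median of 5635 exon bases falls in length decile 7, where 57.4% of genes were below 0. Vwa2 encodes AMACO, a basement membrane protein that binds the Fraser complex, and measured 836 and 1014 CPM in the controls against 750 and 738 CPM in the knockouts (log2 fold change -0.31 ± 0.14 SE, edgeR adjusted p = 0.48). Per kilobase its mean level was 206, above that of each of the 8 genes. Egfl6, a secreted protein of the nephronectin family, measured 163 and 223 CPM in the controls against 153 and 181 CPM in the knockouts, so its groups overlapped (-0.21 ± 0.18 SE, adjusted p = 0.69). Fbln1, a fibulin, gave 0.04 ± 0.13 (adjusted p = 0.92), and Crim1, a transmembrane protein linked to the Fraser complex, -0.23 ± 0.15 (adjusted p = 0.60). Postn, the matrix protein periostin, gave -0.25 ± 0.21 (adjusted p = 0.67). Ntn4, named after its values were seen, had the highest value of the list, at 1.02 ± 0.30 (adjusted p = 0.43).

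Proteases and trafficking genes had a median of -0.04 over 7 tested genes. Furin, a proprotein convertase, measured 139 and 151 CPM in the controls against 121 and 161 CPM in the knockouts, so the groups overlapped (log2 fold change -0.04 ± 0.16 SE, edgeR adjusted p = 0.94). Pcsk6, a related convertase, gave -0.62 ± 0.16 (adjusted p = 0.43), with 80.7 and 83.8 CPM in the controls against 60.3 and 46.7 CPM in the knockouts.

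**Figure D5:**
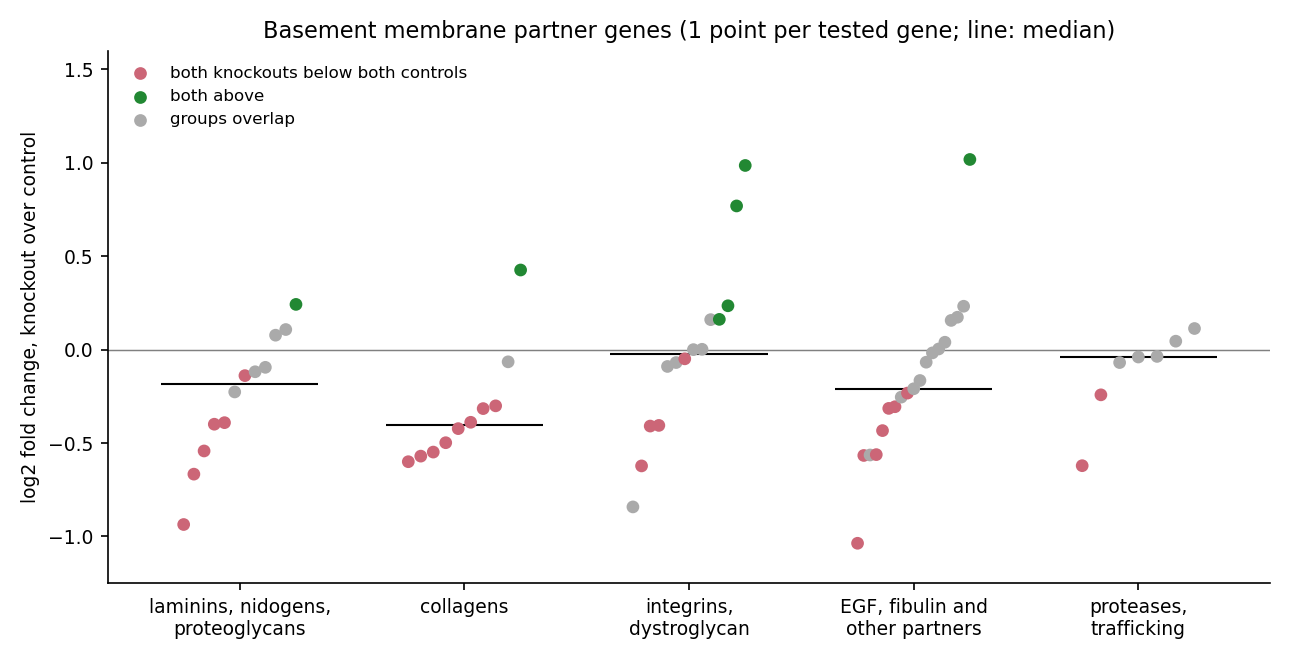
Log2 fold change, knockout over control, of the 62 tested partner genes in 5 lists (1 point per gene, line at the list median); red points have both knockouts below both controls, green both above, grey overlap. The collagen list has the lowest median (-0.41), and the integrin list lies on both sides of 0.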

How the data were processed

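The deposited values are raw counts per Ensembl gene, per the labels, with 55536 genes and 4 columns. Tools named in the submitters' processing notes are Trim Galore 0.6.0, cutadapt, FastQC, STAR 2.7.0e, and DESeq2 1.26.0, with the build GRCm38 (mm10). Which program counted reads, with what annotation and whether by strand, is not given there. Per the labels' protocols, libraries were directional and polyA-selected. All identifiers matched GENCODE M21 on GRCm38, the source of symbols, coordinates, merged exon lengths and GC content.

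Genes were kept by filterByExpr (14259 genes), normalized by TMM and tested with edgeR 4.0.16's quasi-likelihood test (R 4.3.3, robust, no covariates, Benjamini-Hochberg over all tested genes, threshold 0.05). CPM used effective library sizes, and log2 CPM a prior count of 2. Each SE was the absolute log2 fold change divided by the square root of edgeR's F statistic. At the 8 genes it is a description and not a test. The script was tested on simulated counts. Replicates were not duplicates (chi-square over its degrees of freedom 31.6 for the controls and 41.9 for the knockouts). The 8 genes and all lists were chosen with earlier results of these data known. Named were all 8 genes, the 2 partners of highest mean CPM and up to 2 past the threshold per list, Itga8, Itgb1, Itgav, Egfl6, Vwa2, Fbln1, Furin, Crim1 and Grip2, and the 3 genes nearest to Frem2 and to Hmcn1. Alternatives were RLE, no filter, at least 50 counts in 2 libraries, DESeq2 1.42.0, the replicate number as a block, removal of a length and GC trend (splines with 4 degrees of freedom) and each library left out.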

Additional observations from a re-analysis of the deposited data

How the results depend on the processing

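The count of genes past edgeR's threshold, 1 higher and 0 lower, depended on the processing: 163 and 267 without a count filter, 22 and 58 with DESeq2, and 25 and 81 with the replicate number as a block. With the length and GC trend removed, 2 were higher. Leaving out 1 library gave 1 to 39 higher and 0 to 26 lower, the most without knockout 1. The cause was not tested. The replicate numbers are not given as a pairing. Deviations of same-numbered libraries correlated at 0.12 over the pair of groups, and no partner gene was called with the block. Without a count filter, 24037 genes were tested, of which 163 were called higher and 267 lower. Of the 69 partner genes among them, 2 were called higher (Itga1 and Ntn4, named after their values were seen) and 10 lower. These partner counts were not matched for exon length. Leaving out 1 library gave 0 to 1 higher, Ntn4 without knockout 1. The partners' median log2 fold change was -0.065 with the trend removed and -0.26 to -0.11 with 1 library left out. A lone library in a group was assumed to vary like the other group. With 2 libraries per group, an outlying library could not be tested for, and Frem1, Frem3 and Hmcn2 were too sparse to compare.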
